A study of Mus musculus with 30 samples.

Results

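The genes described here are 46 that carry glucose into the cell, break it down, store it as glycogen or pass its carbon to the mitochondrion. They were taken by name and not by any measured value, and all 46 were found among the 20764 genes of the heart table and the 54532 genes of the HL-1 table. In hearts, 45 of them passed the minimum of an average count over 5 and were tested, and Aldoc did not pass. In HL-1 cells, 43 were tested, and Slc2a4, Pdk4 and Ppp1r3c were not.

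Glucose enters the heart muscle cell through membrane transporters, of which the insulin-responsive GLUT4 (Slc2a4) and the constitutive GLUT1 (Slc2a1) are best known, and is trapped by hexokinase as glucose-6-phosphate. Phosphofructokinase then commits it to glycolysis, and its strongest activator, fructose-2,6-bisphosphate, is made and removed by the bifunctional PFKFB enzymes. Pyruvate leaves as lactate or enters the mitochondrion, where the pyruvate dehydrogenase kinases (PDK) switch the pyruvate dehydrogenase complex off and its phosphatases (PDP) switch it on, and glucose-6-phosphate that is not used is stored as glycogen.

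The study sequenced RNA of 18 hearts and, in 12 libraries, of HL-1 cells, in groups of 3. All mice were female, given as C57BL6 in the labels and as a mix of C57BL6/J and C57BL6/N in the methods of the study. Young mice (2 months) and old mice (12 months) drank water without supplement, and a further set of old mice (12 months) drank water with nicotinamide riboside (NR), a precursor of NAD+, at 3 g/l from the age of 2 months. Hearts of each kind were taken at ZT10, late in the light phase, and at ZT22, late in the dark phase. HL-1 is a mouse line (female, C57BL6/J) grown out of tumours of the atrium, and its cultures were untreated, or received FK866 (an inhibitor of NAMPT, an enzyme of NAD+ synthesis), FK866 with NR, or FK866 with NR and Ex527, a sirtuin inhibitor. The comparisons address whether time of day, age, NR and the supply of NAD+ go with a change in these transcripts. The labels do not say how the HL-1 libraries of a group relate. The methods speak of cell replicates in general as wells cultured apart, without naming these libraries. The p-values for HL-1 cells thus measure the spread between these libraries, which may be technical.

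The heart libraries held between 3922137 and 7562215 counts (median 5534659) and the HL-1 libraries between 21337922 and 35000109 (median 25529294). Levels are given as CPM (counts scaled by TMM to a common library size), which compare 1 gene across libraries of 1 table, and levels of different genes as CPM per kb of exon length. Heart and HL-1 tables were normalized separately, and no test was made across them. In bulk hearts, fewer cells of a type and less RNA per cell cannot be told apart.

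The hearts carried the markers of heart muscle, with 7 of 7 cardiomyocyte genes at 1 CPM or more and Ryr2 the most abundant at 1880 CPM. The labels call the HL-1 libraries cardiomyocytes, but the same genes were near 0 in them: 2 of 7 were at 0, 1 reached 1 CPM and the most abundant, Myoz2, stood at 1.07 CPM. All 5 atrial markers were under 1 CPM in HL-1 cells (Myl7, the most abundant, 0.497 CPM). Of the fibroblast markers 5 of 7 reached 1 CPM, with the collagen Col3a1 the most abundant at 2630 CPM, and 1, Tcf21, was at 0. The HL-1 results below are therefore those of the cultures labelled HL-1. Among these, the first replicate with FK866 and NR stood apart from the other replicates of its group. It had the highest sums of the cardiomyocyte markers (5.61 CPM, against 1.31 and 1.31 CPM) and macrophage markers (27.1 CPM, against 14.3 and 13.2 CPM). The endothelial sum was highest there too (2.27 CPM, against 0.612 and 0.565 CPM).

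2 features of the heart libraries varied, library size and the atrial markers, and library size went along with these genes within groups. In 6 of 6 groups, the library with the most counts had the lowest CPM of its group for between 64.4% and 80% of the 45 tested genes, while over all 15443 genes tested the share was between 31% and 37.4%. In these deepest libraries the median gene of the list lay under its group mean by between -0.08 and -0.19 on the log2 scale (pseudocount 0.5 CPM). In old H2O hearts at ZT22, for example, Aldoa, the muscle aldolase, stood at 535, 369 and 309 CPM in libraries of 3922137, 6122256 and 7562215 counts, and the summed cardiomyocyte markers at 7410, 5460 and 4920 CPM. The authors removed duplicate reads before counting, and its part in this pattern was not tested. The summed atrial markers were also uneven, at 388, 397 and 505 CPM in old H2O hearts at ZT10 against 129, 112 and 130 CPM in old NR hearts at ZT10. Single hearts stood apart as well, at 744 CPM in the first young heart at ZT10 (the others 185 and 154 CPM) and 530 CPM in the second old H2O heart at ZT22 (the others 123 and 135 CPM).

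**Figure D1:**
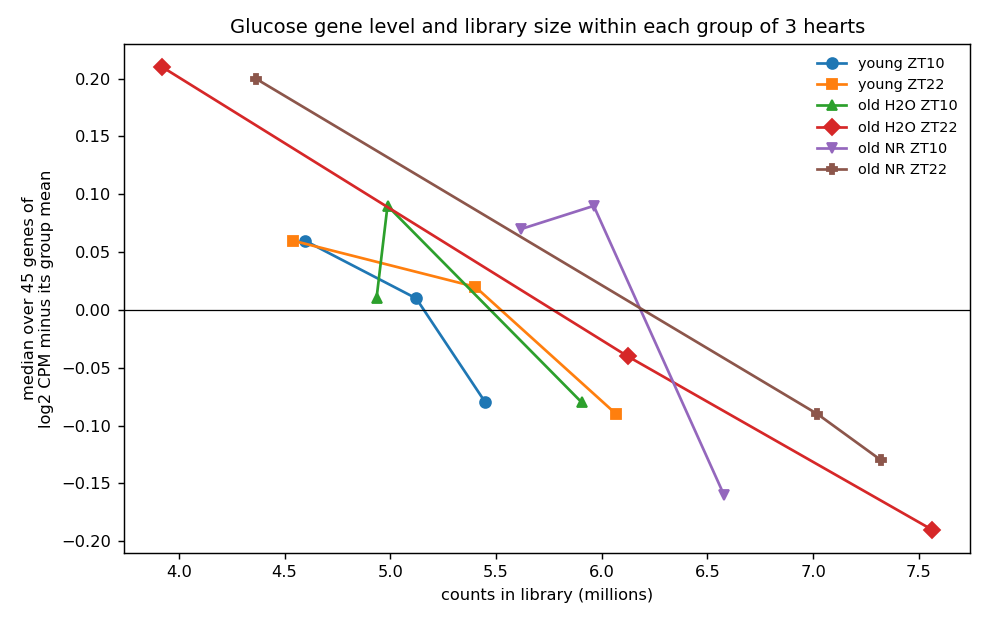
Each point is 1 heart, with its total count on the x axis and, on the y axis, the median over the 45 tested genes of log2 CPM minus the mean of its group, and lines join the 3 hearts of a group. The deepest heart lies lowest in each of the 6 groups, between -0.08 and -0.19, and the shallowest old H2O and old NR hearts at ZT22 lie highest, at 0.21 and 0.2.

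In some enzyme families the leading member differed between the 2 kinds of sample, and in others it was the same. In hearts the highest levels were those of the muscle forms, namely Eno3 (beta-enolase, 236 ± 34 CPM per kb, SD, n = 18), Pgam2 (muscle phosphoglycerate mutase, 230 ± 29.1), Pygm (muscle glycogen phosphorylase, 203 ± 24.9), Pfkm (muscle phosphofructokinase, 187 ± 23.5) and Ldhb (the heart subunit of lactate dehydrogenase, 179 ± 27.6). Their spreads overlapped, so that the order among these genes is not firm. In HL-1 cells the order was led by Pkm (pyruvate kinase, 505 ± 25.2 CPM per kb, SD, n = 12), Pgam1 (453 ± 36.5), Tpi1 (triose phosphate isomerase, 419 ± 40.6), Ldha (281 ± 18.6) and Pgk1 (phosphoglycerate kinase, 267 ± 19.2). The spreads of Pkm and Pgam1, of Pgam1 and Tpi1, and of Ldha and Pgk1 overlapped, so that the order within these is not firm. For the mutase, the heart level was 230 CPM per kb for Pgam2 and 8.6 for Pgam1, and the HL-1 level was 1.61 for Pgam2 and 453 for Pgam1. Enolase had the same arrangement in hearts, with 236 CPM per kb for Eno3 and 16.5 for Eno1, and the reverse in HL-1 cells, with 52.4 for Eno3 and 200 for Eno1. Aldolase was led by Aldoa in both, at 140 CPM per kb in hearts (Aldoc 0.0758) and 243 in HL-1 cells (Aldoc 6.27). The lactate transporters were led by Slc16a1 in both, at 81.4 CPM per kb in hearts (Slc16a3 1.07) and 17.3 in HL-1 cells (Slc16a3 1.26).

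The leading glucose transporter and pyruvate dehydrogenase kinase also differed. Slc2a4 stood at 108 ± 11.4 CPM per kb in hearts, above Slc2a8 (12.3 ± 1.64), Slc2a1 (10.7 ± 1.1) and Slc2a3 (1.03 ± 0.305), whereas in HL-1 cells Slc2a1 led at 32.9 ± 3.64 CPM per kb and Slc2a4 was at 0.0727. The kinases Pdk4 (146 ± 28.2 CPM per kb) and Pdk2 (123 ± 13.7) were highest in hearts and Pdk3 lowest at 2.73, while in HL-1 cells Pdk3 was highest at 20.1 ± 2.14 and Pdk4 was at 0.0356. Ppp1r3c, a subunit that brings phosphatase to glycogen, stood at 74.4 ± 11.6 CPM per kb in hearts and 0.0841 in HL-1 cells, in tables that were normalized separately. Gapdh stood at 30.1 CPM per kb in hearts, where Tpi1, the step before it, had 95.3, and at 11.4 in HL-1 cells, where Tpi1 had 419. This gene has many near-identical copies in the mouse genome, and reads that map to more than 1 place were removed in hearts, so its level is uncertain, as is, for the same reason, that of Pgk1, Pgam1, Eno1, Ldha, Ldhb, Aldoa and Mpc1. The methods of the study do not say how such reads were treated in HL-1 cells, so the levels there are uncertain too. A copy named Eno1b was counted apart in HL-1 cells, at 308 CPM without TMM. These limits hold for the contrasts of Pgam1 with Pgam2 and of Eno1 with Eno3 above, and for the Gapdh values in HL-1 cells below.

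**Figure D2:**
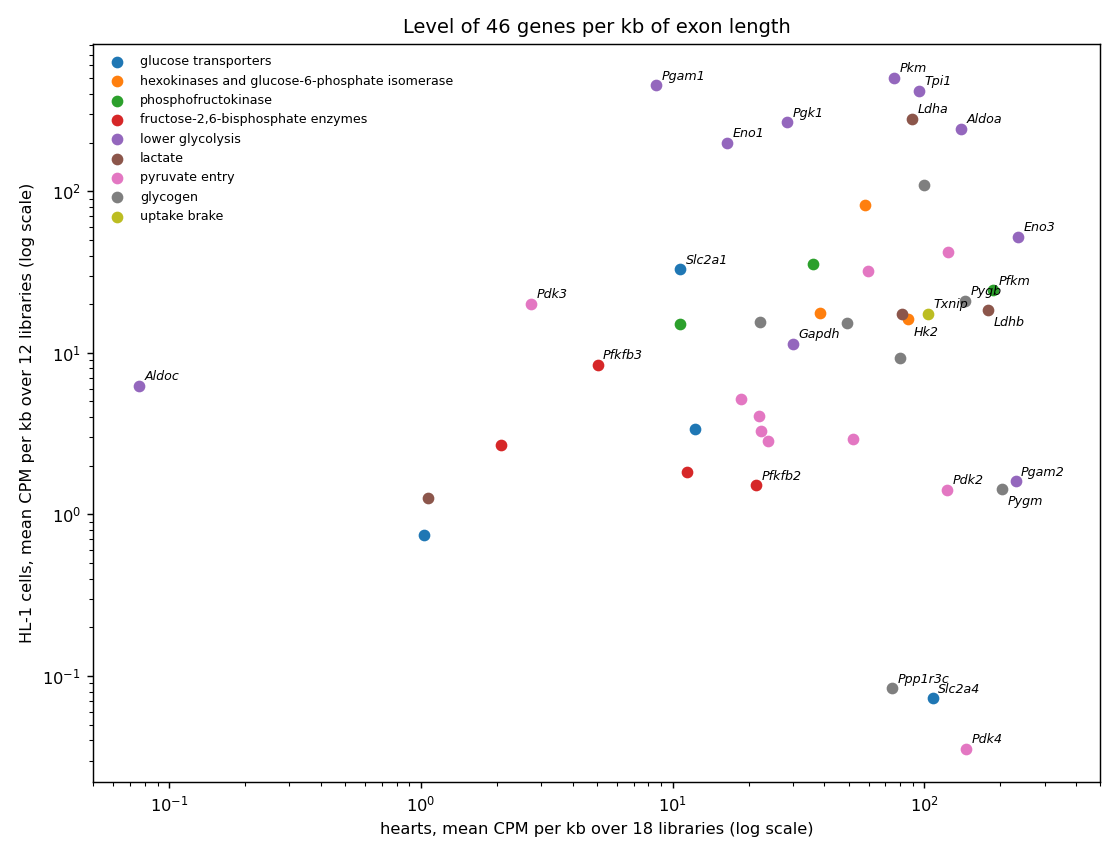
Each point is 1 of the 46 genes, with its mean CPM per kb of exon length over 18 hearts on the x axis and over 12 HL-1 libraries on the y axis, both on log scales, coloured by role. Slc2a4, Pdk4 and Ppp1r3c lie at the lower right (under 0.1 CPM per kb in HL-1 cells), Aldoc at the far left (0.0758 CPM per kb in hearts), and Pgam1 at the top with 453 in HL-1 cells and 8.6 in hearts.

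The PFKFB enzymes set the level of fructose-2,6-bisphosphate. Among the 46 genes, the largest log2 values called in hearts were those of Pfkfb3, Pfkfb1 and Pfkfb2. Pfkfb1 lies at chrX:150588229-150643878, Pfkfb2 at chr1:130689182-130729253, Pfkfb3 at chr2:11471433-11554077 and Pfkfb4 at chr9:108991778-109032228 in GRCm38, and Pfkfb2 was the most abundant per length (21.4 ± 4.19 CPM per kb), ahead of Pfkfb1 (11.4 ± 3.54), Pfkfb3 (5.03 ± 1.73) and Pfkfb4 (2.08 ± 0.417). Because time of day was compared, promoters were searched for the E-box CACGTG bound by the core clock factors, for the D-box forms TTATGTAA and TTACGTAA, for the nuclear receptor motif AGGTCA and for the carbohydrate response element, which overlaps the E-box, all on both strands. The windows ran from 250 bases before to 50 bases after each start in RefSeq (GRCm38.p6), and 43 of the 46 genes had 1 or more, 64 windows in all. An E-box lay in 9 of these 64 windows (14.1%), against 7.15% of all 32851 windows in the table. The 9 genes were Gyg, Ldha, Pdk2, Pdp2, Pfkfb2, Pfkfb3, Pfkm, Ppp1r3c and Slc16a1. AGGTCA was in windows of 9 of the 43 genes (20.9%) and of 18.1% of all 27025 genes. TTATGTAA (1.11% of all genes) and TTACGTAA (0.126%) were in a window of none of the 43. The carbohydrate response element was searched for only as a pair of exact E-boxes with a fixed spacing, which 0 of the 32851 windows held, so that this search separated no genes. The 3 genes with an E-box that were called in a time comparison below are shown by up to 250 bases before the start, 5′ to 3′ on the strand of the gene (the minus strand for all 3), with the E-box in capitals:
Pfkfb2, chr1:130715822-130716071: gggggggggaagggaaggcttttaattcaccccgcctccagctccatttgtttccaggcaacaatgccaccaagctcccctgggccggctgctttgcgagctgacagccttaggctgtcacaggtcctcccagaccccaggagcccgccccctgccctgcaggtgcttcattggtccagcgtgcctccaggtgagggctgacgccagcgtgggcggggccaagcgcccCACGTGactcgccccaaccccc
Pfkfb3, chr2:11502091-11502340: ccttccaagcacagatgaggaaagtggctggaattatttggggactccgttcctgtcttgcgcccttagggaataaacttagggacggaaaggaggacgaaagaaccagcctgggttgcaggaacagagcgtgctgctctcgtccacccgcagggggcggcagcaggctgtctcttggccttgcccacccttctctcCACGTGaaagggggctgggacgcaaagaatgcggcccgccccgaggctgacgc
Ppp1r3c, chr19:36736654-36736854: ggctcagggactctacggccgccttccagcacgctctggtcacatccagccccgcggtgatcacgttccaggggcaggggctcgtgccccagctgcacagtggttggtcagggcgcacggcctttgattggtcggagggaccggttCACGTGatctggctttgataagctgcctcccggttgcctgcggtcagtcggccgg
The E-box begins 22 bases before the RefSeq start in Pfkfb2, 53 in Pfkfb3 and 104 in Ppp1r3c. The Ppp1r3c stretch stops short of that start, because the bases next to it lie inside the gene as the count tables place it. The sequences are those of RefSeq. The Pfkfb2 and Pfkfb3 windows belong to starts inside the gene, and the counts per gene do not separate the starts. A match is a description of the letters and not of binding.

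In young hearts, 9 of the 45 genes tested (20%) differed between ZT10 and ZT22, where 14.4% of all 15443 genes did. Higher at ZT10 were 4 genes (6.8% of all genes were called in that direction): the regulators Pfkfb3 and Pfkfb1, the transporter Slc2a8 and the phosphatase Pdp1. Lower at ZT10 were 5 genes (7.57% of all genes): Ppp1r3c, Pdk4, Pgam1, Pfkp and Gys1. The median log2 fold change of the 45 genes was 0.06, beside 0.01 over all genes tested. The values of the 3 hearts at ZT10 and of the 3 at ZT22 did not overlap for any of the 9, which were called from these same values. Of all 45 genes, 6 higher and 6 lower at ZT10 did not overlap, and the share over all genes was not counted. The summed endothelial markers did not overlap either, at 1480, 1430 and 1500 CPM at ZT10 and 1780, 1650 and 1750 CPM at ZT22. All 6 of 6 were detected, Kdr being the most abundant at 389 CPM over all hearts. The summed fibroblast markers (7 of 7 detected, Dcn the most abundant at 324 CPM) went the other way, at 1450, 1580 and 1560 CPM at ZT10 and 1430, 1410 and 1380 CPM at ZT22. The part of these markers in the results was not tested.

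Pfkfb3 encodes the PFKFB form with the highest ratio of kinase to phosphatase activity, which raises fructose-2,6-bisphosphate. In young hearts it stood at 54.5, 51.5 and 56 CPM at ZT10 and at 16.8, 25.1 and 22.2 CPM at ZT22. Every ZT10 heart was at least 51.5 and no ZT22 heart was above 25.1, a log2 fold change of 1.32 ± 0.18 (SE, edgeR adjusted p = 3.86e-05). Pfkfb1, known from liver and muscle, stood at 45.6, 60.3 and 40.9 CPM at ZT10 and at 23.3, 28.5 and 22.9 CPM at ZT22. It was thus higher in all 3 hearts at ZT10, by 0.97 ± 0.2 on the log2 scale (edgeR adjusted p = 0.00206). Pfkfb2, the form most studied in heart, was not called between the times in young hearts (-0.23 ± 0.11, edgeR adjusted p = 0.165), nor was the hypoxia-responsive form Pfkfb4 (0.18 ± 0.17, edgeR adjusted p = 0.566).

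Slc2a8 (chr2:32972990-32982083) encodes GLUT8, a transporter held mostly inside the cell. Its values were 49, 42.5 and 48.9 CPM at ZT10 and 28.5, 31.4 and 34.9 CPM at ZT22 in young hearts. The ZT10 hearts were all higher, by 0.56 ± 0.09 on the log2 scale (edgeR adjusted p = 0.000135). The 3 other transporters were not called in young hearts, and Slc2a4, the main cardiac one, had a log2 fold change of 0.14 ± 0.12 (edgeR adjusted p = 0.493). Among the phosphofructokinases, the platelet form Pfkp was lower at ZT10, with 151, 136 and 128 CPM against 171, 171 and 195 CPM at ZT22 (-0.37 ± 0.08, edgeR adjusted p = 0.00343). Pfkm, the predominant form in heart, was not called (0.13 ± 0.14, edgeR adjusted p = 0.622). In lower glycolysis 1 of 9 tested genes was called, Pgam1, which stood at 15, 13.4 and 12 CPM at ZT10 and at 19.1, 18.8 and 20.2 CPM at ZT22 (-0.52 ± 0.12, edgeR adjusted p = 0.00395). Neither a hexokinase, nor Gpi1, nor any of the 4 lactate genes was called.

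At the entry of pyruvate into the mitochondrion, a phosphatase and a kinase of the dehydrogenase moved in opposite directions in young hearts. Pdp1 (chr4:11958184-11966452), which activates the complex, stood at 116, 110 and 122 CPM at ZT10 and at 91.7, 72.4 and 82.1 CPM at ZT22. All ZT10 values were above all ZT22 values (0.5 ± 0.09 on the log2 scale, edgeR adjusted p = 0.000546). Pdk4, the kinase that rises with fasting and fat use, stood at 381, 500 and 351 CPM at ZT10 and at 507, 735 and 519 CPM at ZT22. Its highest ZT10 heart (500) and lowest ZT22 heart (507) nearly met, and the log2 fold change was -0.52 ± 0.16 (edgeR adjusted p = 0.0387). The call of Pdk4 was not kept without the first or the third ZT10 replicate or the second ZT22 replicate (edgeR adjusted p from 0.127 to 0.265) or with DESeq2 (adjusted p = 0.0788). The other 8 genes of this step were not called.

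2 of 7 glycogen genes were lower at ZT10 in young hearts. Ppp1r3c (chr19:36731737-36736653), whose product targets protein phosphatase to glycogen, stood at 184, 149 and 160 CPM at ZT10 and at 242, 227 and 251 CPM at ZT22 (-0.55 ± 0.11, edgeR adjusted p = 0.00214). Gys1, the muscle glycogen synthase, stood at 222, 219 and 220 CPM at ZT10 and at 252, 259 and 269 CPM at ZT22 (-0.24 ± 0.07, edgeR adjusted p = 0.0223). Both were lower in every ZT10 heart than in any ZT22 heart. The call of Gys1 was not kept when any of the 3 ZT10 replicates or the second or the third ZT22 replicate was left out (edgeR adjusted p from 0.0547 to 0.0867). The phosphorylases Pygm and Pygb, which release glucose from glycogen, were not called, and neither was Txnip, which restrains glucose uptake (324, 273 and 289 CPM at ZT10, 356, 290 and 341 CPM at ZT22).

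In old H2O hearts, 0 of the 45 genes were called between the times, where 4.2% of all genes were (1.56% higher and 2.64% lower at ZT10). edgeR gave 4 of them an unadjusted p under 0.05, and DESeq2 also called 0. The largest log2 fold change in the direction of ZT10 was again that of Pfkfb3, with 44.8, 64 and 37 CPM at ZT10 and 31.9, 32.2 and 37.8 CPM at ZT22, but the groups overlapped and it did not pass (0.52 ± 0.17, edgeR adjusted p = 0.0984). Pfkfb1 stood at 40.3, 46.9 and 49.8 CPM at ZT10 and at 31.7, 46.4 and 65.3 CPM at ZT22, where its 3 hearts spread widest. Slc2a8 (0.09 ± 0.09), Pdp1 (0 ± 0.09) and Ppp1r3c (-0.02 ± 0.11) had log2 fold changes near 0, and none passed.

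The difference between young and old H2O hearts in the change with time was itself called for 4 of the 45 genes (8.89%), beside 6.89% of all genes (3.13% above and 3.76% below 0). These interaction values were -1.09 ± 0.27 for Pfkfb1 (edgeR adjusted p = 0.0172), -0.51 ± 0.13 for Pdp1 (edgeR adjusted p = 0.0169), -0.47 ± 0.12 for Slc2a8 (edgeR adjusted p = 0.0236) and 0.53 ± 0.16 for Ppp1r3c (edgeR adjusted p = 0.0487). In all 4 the change with time was larger in young than in old H2O hearts. Pfkfb3 did not pass this test (-0.8 ± 0.25, edgeR adjusted p = 0.0594), nor did Pgam1 (0.46 ± 0.16, 0.0929) or Pdk4 (0.22 ± 0.23, 0.634), so that in this fit their change with time is not shown to differ between ages. The interaction of Pdp1 was not kept without the second young ZT22 replicate (edgeR adjusted p = 0.0546), and that of Pfkfb1 without the second young ZT10 or the third old H2O ZT22 replicate (0.0634 to 0.0644). That of Slc2a8 was not kept in 5 of 12 such fits (0.0521 to 0.0625: second old H2O replicate at either time, first and the third young ZT10, second young ZT22) or with DESeq2 (0.0749). That of Ppp1r3c was kept in only 2 of 12, those without the first old H2O ZT22 or the first young ZT10 replicate (0.052 to 0.133 in the other 10). With DESeq2 size factors in edgeR or the atrial markers as a covariate, 3 of the 45 genes were called (6.84% and 5.92% of all genes). DESeq2 called 4 (5.63%), which were not the same 4. The replicate block gave 5 (7.87%) and library size as a covariate 7 (9.84%).

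**Figure D3:**
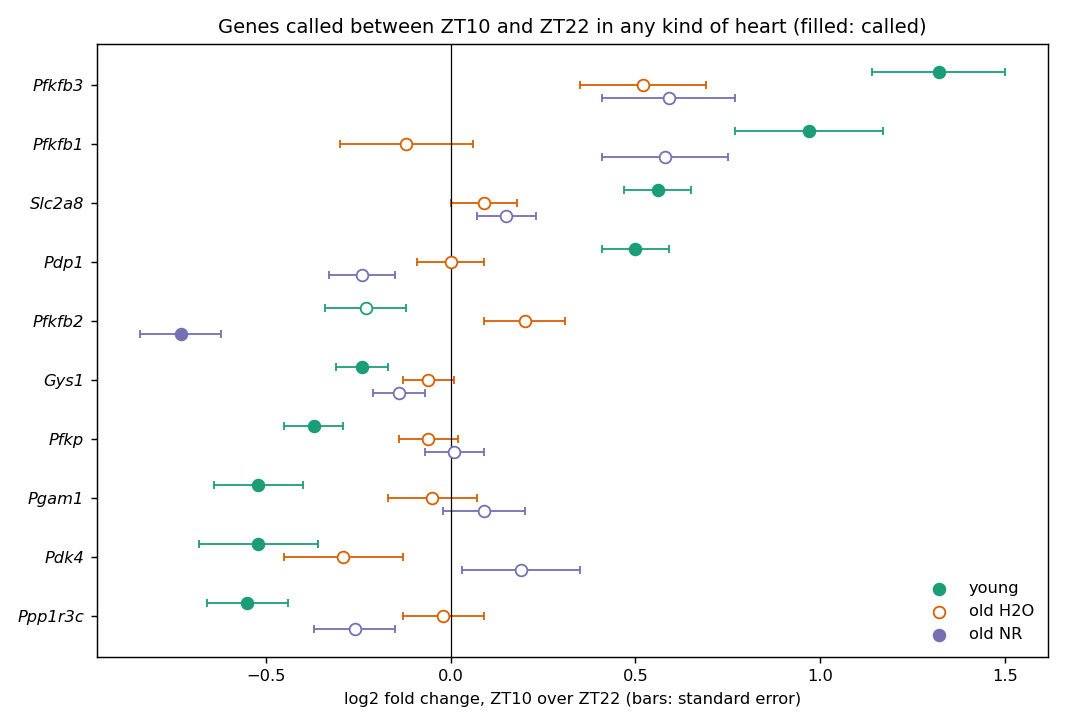
The 10 genes called between ZT10 and ZT22 in any kind of heart are on the y axis and the log2 fold change of ZT10 over ZT22 on the x axis, with bars for the standard error and filled points for called values (green young, orange old H2O, purple old NR). In young hearts 9 are filled, from -0.55 for Ppp1r3c to 1.32 for Pfkfb3, in old H2O hearts none, and in old NR hearts Pfkfb2 alone, at -0.73.

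Age was also compared at each time. These comparisons use the same hearts as those of time, so a gene that is low in young hearts at ZT22 appears in both. At ZT22, 5 of 45 genes (11.1%) differed between old H2O and young hearts, beside 14.1% of all genes. Higher in old hearts were 3 (7.96% of all genes): Pfkfb1 (0.99 ± 0.2, edgeR adjusted p = 0.00205), Pdp1 (0.45 ± 0.09, edgeR adjusted p = 0.00201) and Pfkfb3 (0.66 ± 0.19, edgeR adjusted p = 0.0243). Pdp1 stood at 126, 110 and 101 CPM in old hearts and at 91.7, 72.4 and 82.1 CPM in young ones, with no overlap. Lower in old hearts were 2 (6.17% of all genes), Pfkp, with 126, 147 and 149 CPM against 171, 171 and 195 CPM (-0.34 ± 0.08, edgeR adjusted p = 0.00784), and Pfkfb2, with 159, 132 and 119 CPM against 169, 160 and 188 CPM (-0.35 ± 0.11, edgeR adjusted p = 0.0336). The call of Pfkfb2 was not kept in a fit of these 2 groups alone (edgeR adjusted p = 0.0738), without the second or the third old or the first or the third young replicate (0.0519 to 0.182). Those of Pfkfb3 (without the third old or the first or the third young heart, 0.0594 to 0.11) and Pfkp (without the third young heart, 0.0526) also rested on single hearts. In the same hearts the summed macrophage markers (7 of 7 detected, Lyz2 the most abundant at 121 CPM over all hearts) stood at 569, 497 and 518 CPM in old and at 375, 393 and 425 CPM in young hearts. The summed endothelial markers (6 of 6 detected, Kdr the most abundant at 389 CPM) stood at 1620, 1460 and 1400 CPM in old and at 1780, 1650 and 1750 CPM in young hearts. Neither overlapped, and their part in these results was not tested.

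At ZT10, 1 of the 45 genes (2.22%) differed with age, beside 5.87% of all genes (2.95% higher and 2.92% lower in old hearts). It was Gbe1, the glycogen branching enzyme, with 135, 130 and 128 CPM in old H2O hearts and 107, 102 and 116 CPM in young hearts (0.27 ± 0.07, edgeR adjusted p = 0.0156). All old hearts were higher, but the call was not kept without the first old or the first or second young replicate (edgeR adjusted p from 0.0538 to 0.0867). The genes with time differences in young hearts had log2 values of -0.11 (Pfkfb1), -0.14 (Pfkfb3), -0.06 (Pdp1) and -0.23 (Slc2a8) with age at ZT10, and none of these passed. The sums of 5 marker lists did not overlap between the same hearts. Higher in old hearts were those of macrophages (476, 523 and 486 against 397, 430 and 414 CPM) and of red blood cells (171, 152 and 179 against 141, 93.2 and 124 CPM, 6 of 6 detected, Hbb-bs the most abundant at 54.7 CPM). Lower in old hearts were those of fibroblasts (1440, 1260 and 1430 against 1450, 1580 and 1560 CPM) and endothelial cells (1400, 1390 and 1420 against 1480, 1430 and 1500 CPM). The smooth muscle and pericyte markers (6 of 6 detected, Rgs5 the most abundant at 559 CPM) were lower too, at 1080, 1020 and 978 against 1170, 1100 and 1220 CPM. The part of these markers in the result was not tested.

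NR was compared with water in old hearts. At ZT10, 0 of 45 genes were called, beside 0.285% of all genes (0.117% higher and 0.168% lower with NR), with 2 at an unadjusted p under 0.05 in edgeR and 0 called by DESeq2. The share of all genes rested on single hearts, as it lay between 0% and 0.143% when 1 of the 6 was left out (0% without the third H2O or the first or the third NR heart). A fit of these 2 groups alone called 2 (with 1.52% of all genes called in that fit), Pfkfb1 (0.49, edgeR adjusted p = 0.00158) and Pfkfb2 (-0.37, edgeR adjusted p = 0.00346). At ZT22, 1 gene was called (2.22%), Pfkfb2, where 0.35% of all genes were (0.0907% higher and 0.259% lower with NR). Pfkfb2 stood at 228, 201 and 170 CPM in old NR hearts at ZT22 and at 159, 132 and 119 CPM in old H2O hearts. All NR hearts were higher, by 0.55 ± 0.11 on the log2 scale (edgeR adjusted p = 0.022). The call was not kept when only these 2 groups were fitted (edgeR adjusted p = 0.2) or without the second or the third H2O or the first or second NR replicate (0.073 to 0.117). At ZT10 its values went the other way without passing in the fit of all groups, with 117, 120 and 123 CPM in NR hearts and 159, 144 and 163 CPM in H2O hearts (-0.37 ± 0.11, edgeR adjusted p = 0.175).

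Within old NR hearts, 1 of the 45 genes (2.22%) differed between the times, beside 5.37% of all genes (2.36% higher and 3.01% lower at ZT10), and it was again Pfkfb2. Its hearts stood between 117 and 123 CPM at ZT10 and between 170 and 228 CPM at ZT22, a log2 fold change of -0.73 ± 0.11 (edgeR adjusted p = 0.000144). In old H2O hearts the same value was 0.2 ± 0.11, and the difference of the 2, the NR by time interaction, was -0.93 ± 0.15 (edgeR adjusted p = 0.00925). Pfkfb2 was the 1 gene of the 45 with this interaction (2.22%, beside 0.343% of all genes, 0.233% above and 0.11% below 0), and its call was kept in 20 of 20 alternatives, those that left out each of the 12 hearts and those with library size or the atrial markers as a covariate included. Pfkfb1 and Pfkfb3 were higher at ZT10 in old NR hearts without passing (0.58 ± 0.17, edgeR adjusted p = 0.0563, and 0.59 ± 0.18, edgeR adjusted p = 0.0527), and the groups of 3 did not overlap for either gene. Of the 45 genes, 2 higher and 5 lower at ZT10 did not overlap in these hearts, and the share over all genes was not counted. Pfkfb1 and Pfkfb3 both passed with DESeq2 (adjusted p = 0.0466 and 0.0389), with no filter on low counts (edgeR adjusted p = 0.0497 and 0.0455) and in a fit of these 2 groups alone (edgeR adjusted p = 0.00969 and 0.0357). Slc2a8 (0.15 ± 0.08), Ppp1r3c (-0.26 ± 0.11) and Pdp1 (-0.24 ± 0.09) did not pass between the times in old NR hearts (edgeR adjusted p = 0.363, 0.204 and 0.11). Pdp1 stood at 113, 90.4 and 107 CPM at ZT10 and at 122, 121 and 123 CPM at ZT22, with every ZT22 heart above every ZT10 heart. The NR by time interaction of these 3 genes did not pass either (edgeR adjusted p = 0.903, 0.634 and 0.516). Marker sums moved with NR as well. At ZT22, where Pfkfb2 was called, 3 lists were lower in old NR than in old H2O hearts without overlap. These were fibroblasts (1170, 1060 and 1230 against 1530, 1320 and 1270 CPM), macrophages (406, 393 and 418 against 569, 497 and 518 CPM) and smooth muscle and pericytes (1010, 894 and 915 against 1070, 1060 and 1020 CPM). At ZT10, 5 lists were lower without overlap, among them fibroblasts (1120, 992 and 1150 against 1440, 1260 and 1430 CPM), macrophages (405, 410 and 441 against 476, 523 and 486 CPM) and the atrial markers given above. The other 2 were red blood cells (142, 127 and 144 against 171, 152 and 179 CPM) and fast skeletal muscle (34.1, 39 and 30.9 against 49.4, 46.5 and 54.3 CPM). Between the times in old NR hearts, the atrial markers did not overlap (129, 112 and 130 CPM at ZT10, 225, 223 and 160 CPM at ZT22). Except for the atrial markers as a covariate, the part of these markers in the results with NR was not tested.

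**Figure D4:**
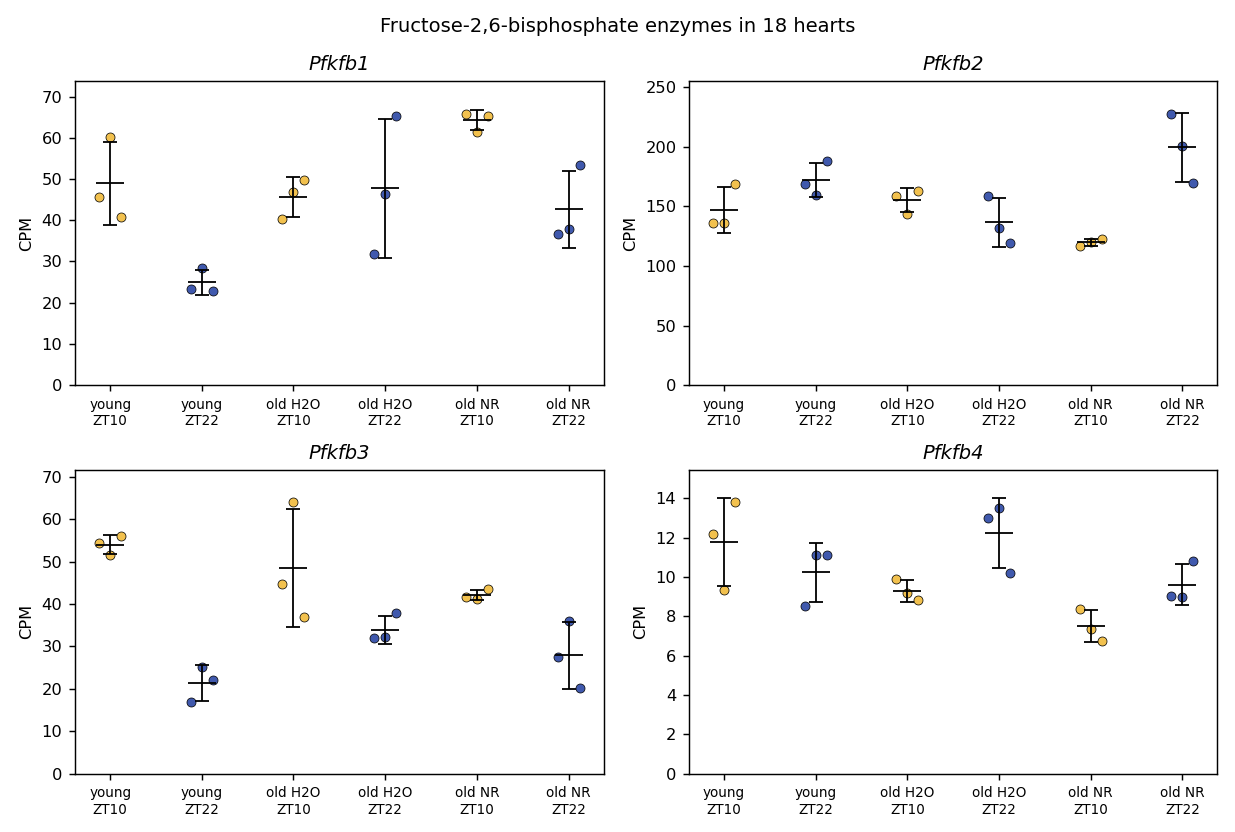
CPM of the 4 PFKFB genes (y axes, from 0) in the 6 groups of hearts (x axes), with a point for each heart, a bar at the mean of 3 and whiskers of 1 SD, yellow for ZT10 and blue for ZT22. Pfkfb3 falls from 51.5 to 56 CPM at ZT10 to 16.8 to 25.1 CPM at ZT22 in young hearts, and Pfkfb2 has its lowest (117 to 123 CPM) and highest (170 to 228 CPM) groups in old NR hearts.

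Over the 9 heart comparisons, 11 of the 45 genes (24.4%) were called in 1 or more and 34 in none, beside 28.5% of all genes called in 1 or more. The log2 values of these 34 lay between -0.94 ± 0.4 (age by time, edgeR adjusted p = 0.165) and 0.71 ± 0.28 (age at ZT22, edgeR adjusted p = 0.0978), both of Slc2a3, the neuronal transporter GLUT3, which stood between 4.75 and 12.2 CPM in the 18 hearts. Among the genes with the highest level per length in their step, Eno3, Pygm, Pfkm, Ldhb, Hk2, Slc2a4 and Txnip were in this group, and their log2 values lay between -0.21 and 0.19. The group means of Slc2a4 ran from 361 ± 28.7 CPM (SD, n = 3) in young hearts at ZT22 to 399 ± 29.2 CPM in young hearts at ZT10, and those of Hk2, the insulin-responsive hexokinase, from 478 ± 68 CPM in old H2O hearts at ZT22 to 547 ± 43.8 CPM in young hearts at ZT10. For Pygm they ran from 609 ± 61.1 CPM (old NR, ZT10) to 688 ± 47.5 CPM (old H2O, ZT10), and for Ldhb from 256 ± 30.7 CPM to 299 ± 22.3 CPM (old NR and young, both ZT10). These differences between group means were of the size of the spread within groups, which was widest in the old hearts at ZT22 (SD 139 CPM for Pygm with H2O and 135 CPM with NR).

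With log2 library size as a covariate, a setting chosen after the data had been seen, the counts of called genes rose to 13 (28.9%) for time in young hearts, 5 (11.1%) for time in old NR hearts and 9 (20%) for age at ZT22. With the same covariate 17.8%, 7.91% and 16.9% of all genes were called in these comparisons. The 9, 1 and 5 genes called without the covariate were among those called with it.

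In HL-1 cells, 5 of the 43 genes tested (11.6%) passed an adjusted p under 0.01 and a fold change over 1.5 between FK866 and untreated cells, beside 4.59% of all 14760 genes tested. Lower with FK866 were 4 (2.5% of all genes): Ldhb, Aldoc, Gapdh and Slc2a8. Higher was 1 (2.09% of all genes), Pygm. At an adjusted p under 0.05 with any fold, 17 of the 43 were called, 4 higher and 13 lower, beside 24.8% of all genes (12.2% higher and 12.6% lower). Over the 5 HL-1 comparisons, 7 of the 43 genes (16.3%) passed both thresholds in 1 or more and 36 in none, beside 7.88% of all genes that passed in 1 or more. The 13 lower genes were Aldoc, Eno3, Gapdh, Ldhb, Pdk1, Pdk3, Pfkl, Pfkm, Pgam1, Slc2a1, Slc2a8, Tpi1 and Ugp2, and the 4 higher Gyg, Pfkp, Pygm and Txnip. Of the 7 genes with the highest level per length, Pgam1 and Tpi1 were thus lower, while Pkm, Ldha, Pgk1, Aldoa and Eno1 were in neither list. Pfkfb3, the PFKFB form with the highest level in HL-1 cells, stood at 59.7 ± 6.71 CPM (SD, n = 3) in untreated cells and at 64.9 ± 1.06 CPM with FK866, and passed in none of the 5 comparisons.

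Ldhb, the subunit that favours the use of lactate, stood at 34.8, 39.2 and 40.8 CPM in untreated cells and at 23.1, 24.2 and 21.3 CPM with FK866. All FK866 libraries were lower, by a log2 value of -0.74 ± 0.09 (edgeR adjusted p = 2.83e-05). Aldoc (chr11:78322968-78327781), the brain-type aldolase, stood at 27.6, 25.5 and 26.1 CPM in untreated cells and at 15.8, 14.2 and 15.8 CPM with FK866 (-0.79 ± 0.11, edgeR adjusted p = 0.000147). Aldoa, the form with the higher level, stood at 717 to 790 CPM and 660 to 804 CPM, and was not called. Gapdh was lower too (47.9, 53.3 and 58.1 against 35.3, 32 and 34.8 CPM, -0.64 ± 0.09, edgeR adjusted p = 0.000175), though without the third untreated replicate its value of -0.57 was under the fold required. Slc2a8 (10.1, 13.1 and 13.9 against 7.93, 9.14 and 7.09 CPM) had a log2 fold change of -0.62 ± 0.14 (edgeR adjusted p = 0.00457), which was not kept without the second or the third untreated or the first or the third FK866 replicate (0.0218 to 0.0246) or in a fit of the 2 groups alone (0.0213).

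Pygm and Txnip were higher with FK866. Pygm, at low counts, stood at 3, 3.42 and 2.91 CPM in untreated cells and at 6.02, 5.92 and 6.03 CPM with FK866 (0.94 ± 0.15, edgeR adjusted p = 0.00041). Txnip (chr3:96557957-96561883), an arrestin-like protein that promotes removal of glucose transporters from the membrane, stood at 51.6, 49.2 and 47.3 CPM and at 69.7, 74.6 and 72.2 CPM with FK866. All FK866 libraries were higher, with a log2 fold change of 0.55 ± 0.06 (edgeR adjusted p = 1.5e-05), under the fold of 1.5. The kinase Pdk1 was lower (-0.56 ± 0.1, edgeR adjusted p = 0.000778) and Pfkp higher (0.48 ± 0.06, edgeR adjusted p = 2.83e-05), both also under that fold.

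With NR added to FK866, 2 of the 43 genes (4.65%) passed against FK866 alone, beside 4.81% of all genes, and both were higher (2.79% of all genes were higher and 2.02% lower). Pdk1 (chr2:71873224-71903858), which inhibits pyruvate dehydrogenase, stood at 32.7, 33.1 and 33.2 CPM with FK866 and NR and at 15.8, 13.9 and 16.5 CPM with FK866. The log2 fold change was 1.1 ± 0.1 (edgeR adjusted p = 2.21e-06), and the NR libraries also lay above the untreated ones (26, 21.7 and 20.7 CPM, 0.54 ± 0.09, edgeR adjusted p = 0.00874). Aldoc stood at 31.4, 23.4 and 24.3 CPM with FK866 and NR, all above the FK866 libraries (0.79 ± 0.11, edgeR adjusted p = 0.000153). It differed from untreated cells by 0 ± 0.11 on the log2 scale. Both comparisons use the FK866 libraries, so opposite signs against untreated cells and with NR are in part given by these shared samples. At an adjusted p under 0.05 with any fold, 18 of the 43 were called, 12 higher and 6 lower, beside 28.9% of all genes (13.9% higher and 15% lower), and Txnip (-0.42 ± 0.06, edgeR adjusted p = 0.000147), Gyg (-0.58 ± 0.09, edgeR adjusted p = 0.000461) and Ldhb (0.49 ± 0.09, edgeR adjusted p = 0.000942) were among them.

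Between FK866 with NR and untreated cells, 0 of the 43 passed, beside 0.901% of all genes (0.793% higher and 0.108% lower). That share rested on single libraries, as it was 2.83% without the first untreated replicate and 0% without any 1 of the 5 others. edgeR gave 16 of them an unadjusted p under 0.05, and DESeq2 called 0. At an adjusted p under 0.05 with any fold, 7 were called (3 higher and 4 lower), beside 23.9% of all genes (11.1% higher and 12.8% lower). Of the genes called with FK866, Ldhb stood at 32, 32.2 and 32.3 CPM (-0.25 ± 0.09 against untreated cells, edgeR adjusted p = 0.0485), Gapdh at 46.1, 43.6 and 39.5 CPM (-0.3 ± 0.09, edgeR adjusted p = 0.0306) and Pygm at 5.01, 4.28 and 4.63 CPM (0.57 ± 0.15, edgeR adjusted p = 0.02), each between the untreated and the FK866 groups. Eno3 was lower by a log2 value of -0.46 ± 0.07 (edgeR adjusted p = 0.00729), beside -0.5 ± 0.07 with FK866 alone.

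Ex527, added to FK866 and NR, was compared with both. Between FK866 with NR and Ex527 and FK866 with NR, 2 of the 43 (4.65%) passed, both lower, beside 0.596% of all genes (0.21% higher and 0.386% lower). That share was 1.13% with DESeq2 and 1.73% with no filter on low counts, and 2 of the 43 passed in each. Aldoc stood at 14.3, 15.2 and 12 CPM with Ex527, against 31.4, 23.4 and 24.3 CPM without it (-0.93 ± 0.11, edgeR adjusted p = 0.000242). Pdk1 stood at 18.3, 21.9 and 20.1 CPM, against 32.7, 33.1 and 33.2 CPM (-0.71 ± 0.09, edgeR adjusted p = 0.000469). Aldoc and Pdk1 are also the 2 genes called higher with NR over FK866. Both of these comparisons use the FK866 with NR libraries, so the opposite signs are in part given by shared samples. Against FK866 alone, Aldoc with NR and Ex527 differed by -0.14 ± 0.12 (edgeR adjusted p = 0.481) and Pdk1 by 0.38 ± 0.1 (edgeR adjusted p = 0.0199). Ldhb had the same arrangement at a smaller size, with 22, 26 and 21 CPM (-0.48 ± 0.09 against FK866 with NR, edgeR adjusted p = 0.00468, and 0.01 ± 0.09 against FK866). Slc2a1, by contrast, stood at 117, 130 and 125 CPM with NR and Ex527 and at 117, 129 and 128 CPM with NR, a difference of 0 ± 0.06, and was higher than with FK866 alone in both (0.36 ± 0.07 in each, edgeR adjusted p = 0.0027 and 0.000926, both under the fold of 1.5).

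Against FK866 alone, 2 of the 43 (4.65%) passed with NR and Ex527, beside 1.27% of all genes. Gapdh was higher, with 66, 53.8 and 55.2 CPM against 35.3, 32 and 34.8 CPM (0.78 ± 0.09, edgeR adjusted p = 0.000124, 0.413% of all genes called higher). Txnip was lower, with 42.3, 41.8 and 45.1 CPM against 69.7, 74.6 and 72.2 CPM (-0.75 ± 0.06, edgeR adjusted p = 7.04e-06, 0.86% of all genes called lower). Untreated cells stood at 47.3 to 51.6 CPM for Txnip and at 47.9 to 58.1 CPM for Gapdh, and the cultures with Ex527 were not tested against them. Gbe1 was lower with Ex527 than with FK866 and NR (-0.43 ± 0.08, edgeR adjusted p = 0.0073) and than with FK866 (-0.4 ± 0.08, edgeR adjusted p = 0.0061), both under the fold required.

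**Figure D5:**
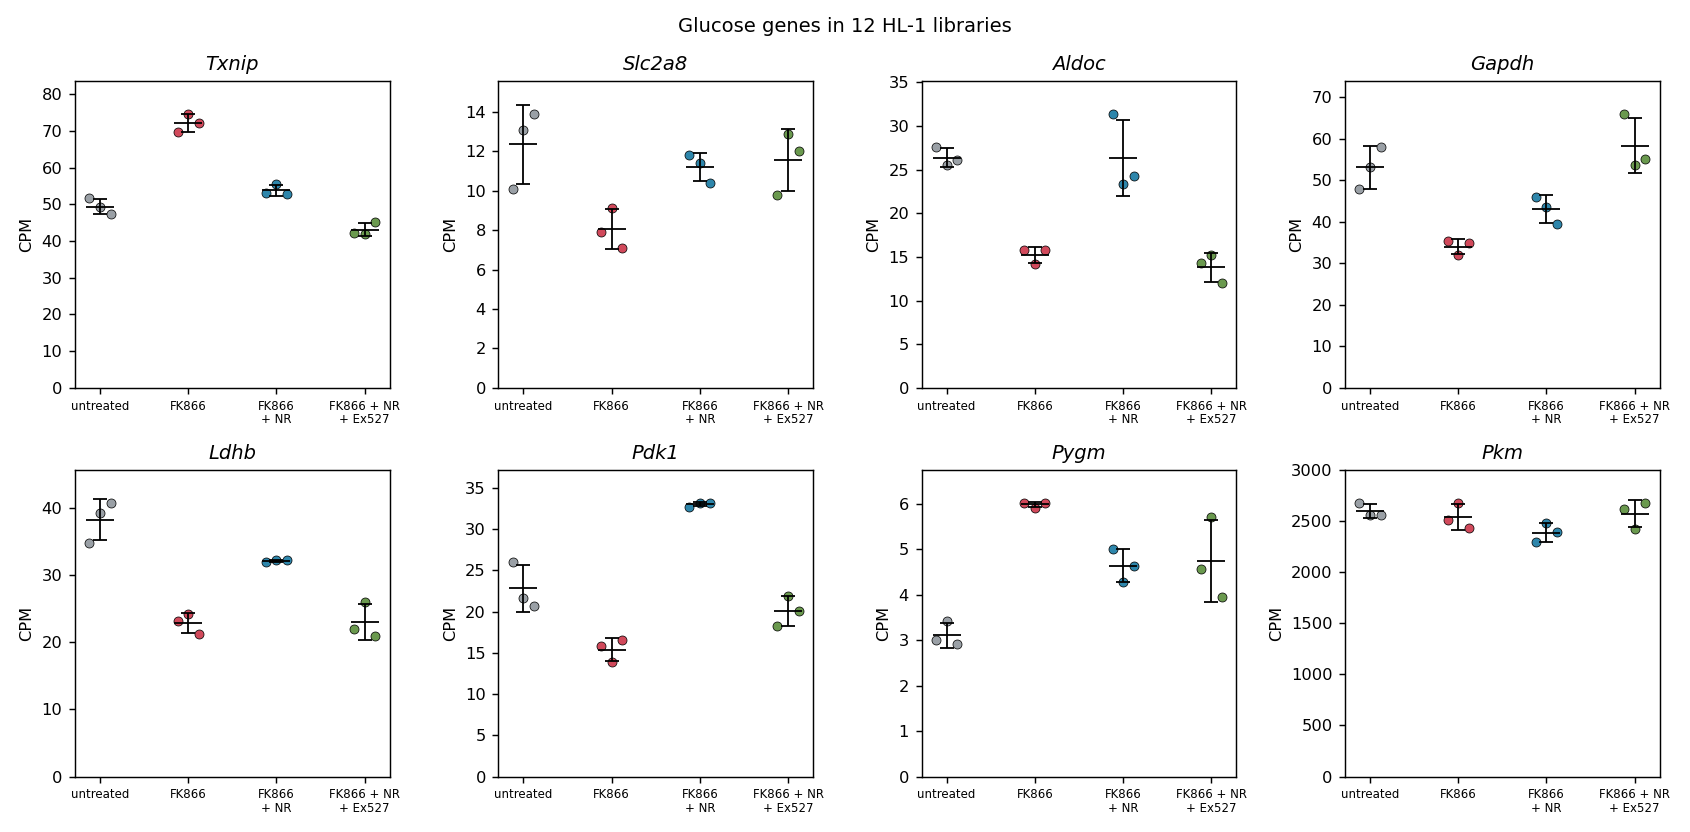
CPM (y axes, from 0) of 8 genes in the 4 groups of HL-1 cultures (x axes), with a point for each library, a bar at the mean of 3 and whiskers of 1 SD. Pdk1 is highest with FK866 and NR (32.7 to 33.2 CPM), Aldoc is low with FK866 and with Ex527 (12 to 15.8 CPM), Txnip is highest with FK866 (69.7 to 74.6 CPM), and Pkm, shown for scale, lies between 2290 and 2680 CPM in all 12.

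A second list held 74 further genes of glucose use (other isoforms, gluconeogenesis, pentose phosphate, hexosamine and other glycogen genes), of which 65 were tested in hearts and 55 in HL-1 cells. In young hearts 15 of the 65 (23.1%) differed between the times, 10 higher and 5 lower at ZT10, against 14.4% of all genes. The 4 with the smallest adjusted p were Phka2, the liver regulatory subunit of phosphorylase kinase (0.47 ± 0.1, edgeR adjusted p = 0.00292), Epm2a, the glycogen phosphatase laforin (0.32 ± 0.07, edgeR adjusted p = 0.00478), Fbp2, the muscle fructose bisphosphatase (0.43 ± 0.12, edgeR adjusted p = 0.0152), and Phkg1, the muscle catalytic subunit of phosphorylase kinase (0.35 ± 0.1, edgeR adjusted p = 0.016). The calls of Fbp2 (first or second ZT10, second ZT22 replicate) and Phkg1 (the third ZT10, first or the third ZT22) were lost without single hearts (0.0517 to 0.0753). In old H2O hearts 5 of 65 (7.69%, of which 3 higher and 2 lower) were called, beside 4.2% of all genes. In old NR hearts 2 of 65 (3.08%, both higher) were called, beside 5.37%. Ppp1r3e, another glycogen-targeting subunit, was higher at ZT10 in both (1.65 ± 0.39, edgeR adjusted p = 0.0161, and 2.38 ± 0.43, edgeR adjusted p = 0.00143). In old H2O hearts that call was not kept without the first or the third ZT10 or the second or the third ZT22 replicate (0.0604 to 0.108).

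Of the 65 genes in this list, 6 (4 higher, 2 lower) were called with age at ZT10, beside 5.87% of all genes, and 11 (9 higher, 2 lower) at ZT22, beside 14.1%, where the monocarboxylate transporter Slc16a7 was among those higher in old hearts (0.97 ± 0.15, edgeR adjusted p = 0.000183). In 6 of 65 (9.23%, 2 above and 4 below 0) the change with time differed between young and old H2O hearts, beside 6.89% of all genes, and Fbp2 was among them (-0.64 ± 0.17, edgeR adjusted p = 0.0215), though not in 5 of 12 fits without 1 heart (0.053 to 0.0717). Fbp2 stood at 95.8, 94.3 and 83.6 CPM in young, 51.2, 76.2 and 51.8 CPM in old H2O and 87.5, 85.3 and 91.9 CPM in old NR hearts at ZT10. It was thus lower in every old H2O heart than in any young or old NR heart, with log2 values of -0.6 ± 0.12 with age (edgeR adjusted p = 0.00352) and 0.55 ± 0.12 with NR (edgeR adjusted p = 0.0437, beside 0.285% of all genes called). The call with NR was not kept in 5 of 6 fits without 1 heart (0.136 to 0.288) or with the atrial markers as a covariate (0.312). In HL-1 cells, 3 of 55 (5.45%, beside 4.81% of all genes) were called between FK866 with NR and FK866, Sord (-0.72 ± 0.07), Stbd1 (-0.82 ± 0.1) and Ppp1r3b (0.68 ± 0.1). Ppp1r3b fell under the fold of 1.5 without the second FK866 replicate (log2 value 0.58), and 0 of the 55 passed in each of the 4 other comparisons by edgeR.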

How the data were processed

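RNA-seq was made from 18 mouse hearts and, in 12 libraries, from HL-1 cells. For hearts, the deposited counts per gene were made by the authors with Trimmomatic 0.39, STAR 2.7.10a (mm10), Picard 3.0.0 for removal of duplicates and featureCounts 2.0.4, and reads mapping to several places were removed. The authors' heart table of normalized counts, rounded and treated as a score, served only for a check: the deposited table named normalized holds the counts and the other one those counts divided by DESeq2 1.36.0 size factors, and the 2 were used by content. For HL-1 cells the deposited counts were used, and per the labels HISAT2, HISAT and TopHat2 were named, with no version given in the sources used here. FPKM values of HL-1 cells were not used.

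Counts were fitted in R 4.3.3 with edgeR 4.0.16 (TMM, quasi-likelihood F-test, limma 3.58.1), with all groups of a table in 1 fit and Benjamini-Hochberg adjustment over all genes tested. Heart genes needed an average count over 5 (15443 of 20764) and were called at an adjusted p under 0.05. HL-1 genes passed filterByExpr (14760 of 54532) and were called at an adjusted p under 0.01 and a fold change over 1.5. With 3 libraries against 3, an exact permutation test of 1 gene could not go below p = 0.1. The number of reads limits low genes, and intervals cover the spread between libraries only. Alternatives were DESeq2 1.42.0, its size factors in edgeR, other filters, a replicate block, fits of the groups compared alone and leaving out each library, with library size and atrial markers as covariates added after the data had been seen. Fits by edgeR were tested on simulated counts for time in young hearts, age by time and FK866 against untreated cells, and the alternatives were not. Motif windows came from RefSeq (GRCm38.p6) and gene positions from the HL-1 table. Genes named are those called, the gene with the highest level per length in each step, and up to 4 called genes of each further list in a comparison, with values of the same genes in other comparisons. Further regulators were named after their values were seen, where a count was 5 or fewer. The genes, lists and tests were chosen with earlier results of these data known. 1 gene of the further lists is not reported here.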

Additional observations from a re-analysis of the deposited data

Results flagged for a closer look

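In 4 genes the change between ZT10 and ZT22 differed between old H2O and young hearts by the interaction test itself. The difference in log2 fold change was -1.09 for Pfkfb1, -0.51 for Pdp1, -0.47 for Slc2a8 and 0.53 for Ppp1r3c. Each of these 4 calls was lost in 1 or more fits without 1 heart, as given above. In 1 gene, Pfkfb2, the change between ZT10 and ZT22 differed between old NR and old H2O hearts, by -0.93.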

How the results depend on the processing

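No result changed its direction among called values in any alternative. With log2 library size as a covariate, the genes called numbered 1 for time in old H2O hearts, 5 for time in old NR hearts, 3 for age at ZT10, 9 for age at ZT22 and 7 for age by time (for all genes 5.28%, 7.91%, 9.21%, 16.9% and 9.84% in this order), and with this covariate all of the 45 genes called without it were called too. For time in old NR hearts, DESeq2, no filter on low counts and a fit of the groups compared alone each gave 3 in place of 1 (4.46%, 3.72% and 4.97% of all genes), and a fit of the groups alone gave 2 for age at ZT10, 2 for NR at ZT10 and 0 for NR at ZT22 (9.79%, 1.52% and 0.0127% of all genes). For age by time, DESeq2 size factors in edgeR and the atrial markers as a covariate each gave 3 in place of 4 (6.84% and 5.92% of all genes). In HL-1 cells, an adjusted p under 0.05 with any fold gave 17 genes for FK866 against untreated cells, 18 for FK866 with NR against FK866, 7 for FK866 with NR against untreated cells, 12 for Ex527 against FK866 (12.2% of all genes) and 7 for Ex527 against FK866 with NR (7.17%). The cause of these shifts was not tested.

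Leaving out 1 library at a time gave 7 to 9 genes for time in young hearts, 0 to 1 in old H2O hearts and 1 to 2 in old NR hearts. The range was 0 to 1 for age at ZT10, 3 to 6 for age at ZT22, 1 to 5 for age by time (1 without the second young ZT22 replicate), 0 to 1 for NR at ZT22 and 1 for NR by time. In HL-1 cells it was 4 to 5, 2 to 3, 0 to 1, 2 and 2 in the order above. The share of all genes called moved as well. For time it was 2.26% to 4.81% in old H2O hearts (4.2% with all libraries) and 2.95% to 5.65% in old NR hearts (5.37%). In young hearts it was 9.61% to 13.6% (14.4%). For age it was 3.09% to 3.97% at ZT10 (5.87%), 8.56% to 12.9% at ZT22 (14.1%) and 4.67% to 8.06% by time (6.89%). With NR it was 0% to 0.143% at ZT10 (0.285%), 0.013% to 0.503% at ZT22 (0.35%) and 0.097% to 0.503% for NR by time (0.343%). For FK866 against untreated cells it was 3.57% to 5.17% (4.59%), and for FK866 with NR against FK866 3.48% to 6.27% (4.81%). For Ex527 it was 0.743% to 1.93% against FK866 (1.27%) and 0.34% to 0.544% against FK866 with NR (0.596%). For FK866 with NR against untreated cells it was 0% to 2.83% (0.901%). In this last comparison it was 0.0542% with the replicate block and 0% with a filter on the average count. It was higher with DESeq2 (2.32%), with no filter on low counts (2.71%) and in a fit of these 2 groups alone (1.4%). For NR at ZT10 it was 0% with the atrial markers as a covariate.

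The labels do not pair the libraries by replicate number, and correlations of the same number were low (median 0.08 in hearts and -0.02 in HL-1 cultures). Those over 0.1 were 18 of 45 for hearts and 6 of 18 for HL-1 cultures. The same number was the best match in 24 of 45 for hearts and 6 of 18 for HL-1 cultures, so that a weak pairing of hearts cannot be judged from these values. With the replicate block, 4 genes were called for time in old NR hearts (1 without it), 6 for age at ZT22, 5 for age by time and 9 for time in young hearts, beside 6.24%, 15.5%, 7.87% and 15.7% of all genes in the same fit (5.37%, 14.1%, 6.89% and 14.4% without it).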

Other observations

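A list of 26 regulators of glucose use was read in the same fits. In young hearts 6 of 26 (23.1%) differed between the times, 2 higher and 4 lower at ZT10, beside 14.4% of all genes. In old H2O hearts 4 of 26 (15.4%) did, Foxo3 and Klf15 higher and Arrdc4 and Prkaa1 lower at ZT10, beside 4.2%. In old NR hearts 5 of 26 (19.2%) did, Foxo3 higher and Hif1a, Foxo1, Mlxipl and Irs1 lower at ZT10, beside 5.37%. Of these 15 calls, those of Foxo3, Klf15 and Irs1 in young, Klf15 in old H2O and Irs1 in old NR hearts were kept in all alternatives, and the other 10 were lost without 1 or more single hearts. With age 1 of 26 was called at ZT10 (3.85%, beside 5.87%), 4 at ZT22 (15.4%, beside 14.1%) and 3 for age by time (11.5%, beside 6.89%). With NR 1 was called at ZT10, 1 at ZT22 and 1 for NR by time (3.85% each, beside 0.285%, 0.35% and 0.343%). Klf15 is a glucocorticoid-responsive factor that promotes Slc2a4 expression in muscle. Klf15 stood at 137, 126 and 144 CPM at ZT10 and at 95.3, 94.8 and 102 CPM at ZT22 in young hearts, at 150, 138 and 156 CPM and 78.5, 83.1 and 81.2 CPM in old H2O hearts, and at 114, 129 and 130 CPM and 125, 118 and 100 CPM in old NR hearts. It was higher at ZT10 in young (0.48 ± 0.08, edgeR adjusted p = 0.000221) and old H2O hearts (0.87 ± 0.08, edgeR adjusted p = 3.39e-07), and the NR by time interaction was -0.73 ± 0.11 (edgeR adjusted p = 0.00562). At ZT22 it was higher with NR (0.49 ± 0.08, edgeR adjusted p = 0.00815), a call not kept without the second NR replicate (0.059) or in a fit of the 2 groups alone (0.117). Irs1, the insulin receptor substrate, was lower at ZT10 in young (-1.46 ± 0.18, edgeR adjusted p = 5.55e-06) and in old NR hearts (-1.03 ± 0.18, edgeR adjusted p = 0.000918), and its age by time interaction was 1.33 ± 0.25 (edgeR adjusted p = 0.00238). At ZT10 Irs1 stood at 34.4, 41.3 and 40.7 CPM in young, 53.9, 63.8 and 79.2 CPM in old H2O and 31.1, 39.7 and 35.7 CPM in old NR hearts. The old H2O hearts were thus all higher than the others, with log2 values of 0.76 ± 0.19 with age (edgeR adjusted p = 0.017, not kept without the third old or the first young heart, 0.0779 and 0.105) and -0.88 ± 0.18 with NR (edgeR adjusted p = 0.0397). Both use the old H2O hearts, and the call with NR was not kept in any of 6 fits without 1 heart (0.0675 to 0.269) or with the atrial markers as a covariate (0.348). At ZT22 Irs1 was lower with age (-0.57 ± 0.16, edgeR adjusted p = 0.0202), a call not kept in 3 of 6 fits without 1 heart (0.0657 to 0.205) or in a fit of the 2 groups alone (0.0792).

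In HL-1 cells, 1 of 23 regulators tested passed with FK866 (4.35%, beside 4.59% of all genes), Arrdc4, an arrestin related to Txnip. Arrdc4 stood at 6.67, 6.71 and 6.1 CPM in untreated cells, at 17.7, 17 and 16.2 CPM with FK866, at 6.08, 8.17 and 7.74 CPM with NR added and at 5.5, 6.7 and 7.73 CPM with NR and Ex527. All 3 FK866 libraries lay above the other 9, with a log2 fold change over untreated cells of 1.38 ± 0.13 (edgeR adjusted p = 3.02e-06). With NR added, 4 of 23 (17.4%) passed against FK866, beside 4.81% of all genes. Arrdc4 (-1.21 ± 0.13, edgeR adjusted p = 1.2e-05) and Myc (-0.64 ± 0.08, edgeR adjusted p = 4.62e-05) were lower, and Epas1 (0.68 ± 0.09, edgeR adjusted p = 5.29e-05) and Irs2 (0.6 ± 0.07, edgeR adjusted p = 3.91e-05) higher, in a comparison that shares the FK866 libraries. Irs2 fell under the fold of 1.5 in 3 of 6 fits without 1 library (0.55 to 0.58). With NR and Ex527, 1 of 23 passed against FK866 (4.35%, beside 1.27%), again Arrdc4 (-1.35 ± 0.13, edgeR adjusted p = 2.01e-05). The fibroblast markers moved across the same groups, with 5 of 7 at 1 CPM or more and Col3a1 the most abundant at 2630 CPM. Col1a1 was highest with NR and Ex527 (758, 763 and 687 CPM, against 673, 614 and 600 CPM in untreated cells). The sum of the list went from 4140, 3960 and 3780 CPM in untreated cells to 2680, 2540 and 2600 CPM with FK866, 3770, 3820 and 3790 CPM with NR added and 3310, 3430 and 3370 CPM with NR and Ex527. The summed smooth muscle and pericyte markers (2 of 6 at 1 CPM or more, Acta2 the most abundant at 12.1 CPM) stood at 19.5, 18.9 and 23.1 CPM, 13.1, 13.6 and 12.6 CPM, 18.1, 14.1 and 14.8 CPM, and 9.15, 9.65 and 10.4 CPM in the same order, with no overlap between any 2 of these groups. Lists at lower levels moved as well. The red blood cell markers (1 of 6 at 1 CPM or more, Alas2 the most abundant at 5.39 CPM) stood at 8.19, 8.58 and 8.7 CPM, 2.72, 3.13 and 5.63 CPM, 9.09, 6.77 and 8.41 CPM, and 1.62, 3.29 and 1.29 CPM in the same order. The cardiomyocyte and endothelial sums were higher with FK866 (2.27, 2.32 and 3.15 CPM, and 0.713, 0.6 and 0.473 CPM) than in untreated cells (1.48, 1.97 and 1.46 CPM, and 0.0799, 0.207 and 0.197 CPM) without overlap. The part of these lists in the HL-1 results was not tested.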
